A study of Gallus gallus with 50 samples.

Results

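Mitochondrial carriers of the SLC25 family were followed in the small intestine of broiler chickens. The members were chosen by name: every probe set of the Affymetrix chicken genome array whose annotation gives a single symbol made of SLC25A and a number. This gave 33 genes, read by 71 probe sets, of 13009 genes with a single symbol among 38382 probe sets tested. Each gene was represented by its probe set with the highest mean over all 50 arrays, and the other probe sets of the 23 genes with several were read as a check.

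Most SLC25 proteins sit in the inner mitochondrial membrane and exchange metabolites, nucleotides, cofactors and ions between the matrix and the cytosol. In the enterocyte, which burns glutamate, aspartate and fatty acids for energy and exports lipid, they link the cytosolic and mitochondrial sides of these pathways. A few relatives lie elsewhere, such as SLC25A17 in peroxisomes and SLC25A46 in the outer mitochondrial membrane, where it takes part in membrane dynamics and is not known to be a carrier.

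The birds were male Cobb 500 broilers, and mucosal scrapings of jejunum and ileum were taken on day 10 from 25 of them, with 1 array per segment and bird. Control birds (5) ate feed with no supplement. Birds on LPC low and LPC high (5 each) ate feed with purified lysophosphatidylcholine (LPC), a phospholipid with a single fatty acid chain, at 9.5 and 19 g/T of LPC, delivered on a carrier at 500 and 1000 g/T. Birds on lysolecithin low and lysolecithin high (5 each) ate lysolecithin, the mixture from which that LPC was purified, at 250 and 500 g/T, matched to give 9.5 and 19 g/T of LPC. The labels give these diets a product level of 500 and 1000 g/T as well. The labels name 3 batches, each holding 1 or 2 birds of every diet. They describe floor pens of 25 chicks and do not say how pens and feeds were matched, so pen and feed cannot be told apart. Some RNA was extracted anew where its integrity fell short.

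All values are log2 signals, and every difference is a log2 difference relative to the bulk of the array, because the normalisation equalised the arrays. A result was called when its limma p was under 0.05 after Benjamini-Hochberg adjustment across the whole table of probe sets. The tissue is a mixture, so fewer cells of a type and less RNA per cell cannot be told apart. The 10 enterocyte markers had a mean signal of 11.46 to 12.82 over the arrays, and the 4 measured pancreas markers of 3.76 to 4.32. Levels of different probe sets are not comparable with each other.

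A set of 5 arrays from 4 birds stood apart and are given as arrays in doubt. A segment score was computed for each array from the 15 genes most biased to the jejunum and the 15 most biased to the ileum in the other 24 birds. No SLC25 gene entered it for any bird. Its median was 1.82 in the jejunum and -5.42 in the ileum. The arrays of jejunum control replicate 2 (-5.05) and jejunum LPC low replicate 4 (-5.99) lay on the ileum side, and those of ileum LPC low replicate 1 (3.51) and ileum lysolecithin high replicate 4 (3.35) on the jejunum side. The 2 arrays of LPC low replicate 4 also did not match as a pair from the same bird, so its ileum array is the fifth array in doubt.

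Between the segments, 12 of the 33 members were called, 9 with more signal in the jejunum and 3 with more in the ileum, with the bird as a block over 25 birds. Over all probe sets 19.7% were called, 9.92% in favour of the jejunum and 9.8% of the ileum. With a single probe set per gene the shares were 26.8%, 15.5% and 11.3%. The median difference, jejunum minus ileum, was 0.09 over the 33 members and -0.01 over all probe sets. Without the 4 birds with an array in doubt, 20 members were called, 17 toward the jejunum and the same 3 toward the ileum, and all 12 remained among them. The 8 added were SLC25A5, SLC25A16, SLC25A20, SLC25A22, SLC25A26, SLC25A32, SLC25A38 and SLC25A51, with differences between 0.12 and 0.34. For SLC25A20 this was the brighter probe set, and its dimmer one was called toward the ileum with all birds. Each bird left out had an array on the other segment's side of the score, and the score is built from genes that differ between the segments. Leaving these birds out therefore tends to widen such differences, so the added calls are not separate evidence. The same holds for the values without these birds given for single genes below. The share of all probe sets called in this fit is not given here, so the rise is not read as a trait of the family.

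The adenine nucleotide and phosphate carriers held 4 of the 9 jejunal genes, of 6 measured. SLC25A25, an ATP-Mg/phosphate carrier of the inner membrane, ran from 5.75 to 8.80 in the jejunum (median 6.71) and from 5.19 to 7.20 in the ileum (median 6.05). It was higher in the jejunum in 23 of 25 birds, by 0.74 ± 0.16 (SE; limma, adjusted p = 0.00157). Its second probe set was also higher, by 0.31 ± 0.08, while the third differed by -0.03 ± 0.05. SLC25A3, the phosphate carrier that feeds ATP synthase, ran from 11.01 to 11.97 in the jejunum (median 11.60) and from 10.94 to 11.92 in the ileum (median 11.22). It was higher in the jejunum in 22 birds and lower in 2, by 0.33 ± 0.05, with the smallest p of the family (adjusted p = 2.09e-05). The other SLC25A3 probe set, which was dim, had 0.06 and was not called. SLC25A24, the other ATP-Mg/phosphate carrier measured, was higher by 0.25 ± 0.05 in 20 of 25 birds (adjusted p = 0.00118). The other SLC25A24 probe set had 0.19 and was not called.

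Among the ADP/ATP translocases, which export the ATP made in the matrix, SLC25A6 was higher in the jejunum by 0.17 ± 0.03 (adjusted p = 9.55e-05). Its range was 12.74 to 13.07 in the jejunum (median 12.92) and 12.55 to 12.99 in the ileum (median 12.75), and 21 of 25 birds had the higher value in the jejunum. A second SLC25A6 probe set differed by 0.47 ± 0.07 in the same direction. SLC25A5 had a difference of 0.21 ± 0.08 (adjusted p = 0.0748), and 0.30 ± 0.08 without the birds in doubt, which was called (adjusted p = 0.00687). SLC25A4 differed by 0.00 ± 0.04 and was dim by all 3 of its probe sets.

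SLC25A1, the citrate carrier that supplies carbon for fatty acid and sterol synthesis in the cytosol, ran from 8.44 to 10.43 in the jejunum (median 9.63) and from 7.97 to 10.57 in the ileum (median 8.94). Its mean was 9.54 ± 0.46 (SD, n = 25) against 8.99 ± 0.55, a difference of 0.55 ± 0.11 (limma, adjusted p = 0.00074) that 20 birds shared. Both of its probe sets were called, the second at 0.64 ± 0.13. SLC25A10, the dicarboxylate carrier, went the other way at -0.15 ± 0.05 (adjusted p = 0.0232), higher in the ileum in 18 of 25 birds. SLC25A21, which carries oxodicarboxylates, was dim and differed by -0.04 ± 0.04.

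Of the 8 carriers of pyrimidine nucleotides and cofactors, 2 were called, both higher in the jejunum. SLC25A36, a pyrimidine nucleotide carrier, ran from 7.15 to 9.22 in the jejunum (median 8.39) and from 7.15 to 9.05 in the ileum (median 7.91). The difference was 0.49 ± 0.10 (adjusted p = 0.000853; 20 of 25 birds), and its other 3 probe sets, between -0.03 and 0.06, were not called. SLC25A42, a carrier of coenzyme A, had dim signals with medians of 3.95 and 3.67 and was higher in the jejunum by 0.29 ± 0.05 (adjusted p = 0.000198; 20 birds). Of its 5 probe sets, 3 were called in that direction. SLC25A33, the closest pyrimidine carrier to SLC25A36, had -0.12 ± 0.06 (adjusted p = 0.152). The 5 others were not called: SLC25A16 (0.18 ± 0.07), SLC25A17, the peroxisomal cofactor carrier (0.07 ± 0.07), SLC25A26, the S-adenosylmethionine carrier (0.10 ± 0.04), SLC25A32, a folate or FAD carrier (0.25 ± 0.10), and SLC25A51, the NAD carrier (0.09 ± 0.04). Of the 6 probe sets of SLC25A32, 1 was called, at 0.27 ± 0.09 (adjusted p = 0.0408).

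Of the 6 amino acid carriers, only SLC25A13, citrin, an aspartate/glutamate exchanger of the malate-aspartate shuttle, was called by the chosen probe set. It ran from 9.15 to 10.32 in the jejunum and from 8.90 to 10.30 in the ileum, a difference of 0.20 ± 0.07 (adjusted p = 0.0308; 17 of 25 birds). This call was lost in 7 of 25 fits that each left out 1 bird (LPC high replicates 2, 3 and 4, lysolecithin low replicate 1, control replicate 3, LPC low replicate 3 and lysolecithin high replicate 3), with adjusted p between 0.0506 and 0.0574. The other SLC25A13 probe sets had 0.06 and 0.21 and were not called. SLC25A12, aralar, the other exchanger of that shuttle, had -0.29 ± 0.14 (adjusted p = 0.153). The glutamate carrier SLC25A22 had 0.15 ± 0.07 by its brighter probe set (adjusted p = 0.103) and 0.33 ± 0.12 by its dimmer one, which was called (adjusted p = 0.0442). SLC25A38, a glycine carrier needed for heme synthesis, had 0.23 ± 0.10 (adjusted p = 0.0955). The ornithine carrier SLC25A15 (0.02 ± 0.05) and SLC25A29, a carrier of basic amino acids (-0.01 ± 0.05), had dim signals.

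SLC25A48 had the widest difference of the family and was higher in the ileum. In mammals it is described as a mitochondrial choline transporter. The jejunum ran from 3.34 to 9.58 (median 5.21) and the ileum from 3.75 to 9.39 (median 8.21). The mean difference was -2.03 ± 0.42 (adjusted p = 0.000948), with the ileum higher in 19 of 25 birds. The 2 lowest ileum values, 3.75 and 3.92, were the ileum arrays on the jejunum side of the segment score. The jejunum arrays on the ileum side read 7.91 and 9.12. Without the 4 birds in doubt the difference was -2.59 ± 0.39, and the ileum was higher in 18 of 21 birds.

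SLC25A14, a relative of the uncoupling proteins, was also higher in the ileum, in 23 of 25 birds, by 0.28 on the log2 scale (-0.28 ± 0.04, jejunum minus ileum; limma, adjusted p = 6.19e-05). Its range was 7.59 to 8.24 in the jejunum (median 7.85) and 7.73 to 8.40 in the ileum (median 8.18). The other SLC25A14 probe set had -0.09 and was not called. SLC25A30, its closest relative among the members, was dim and had -0.12 ± 0.06 (adjusted p = 0.189). SLC25A43, whose substrate is not settled, was higher in the jejunum by 0.40 ± 0.11 in 20 birds (adjusted p = 0.00907). The other SLC25A43 probe set had 0.06 and was not called. SLC25A46 had 0.09 ± 0.07 by its brighter probe set and 0.28 ± 0.06 by the dimmer one, which was called (adjusted p = 0.00213). SLC25A47, also without a settled substrate, was dim at 0.09 ± 0.04. The 3 carriers of iron and glutathione, SLC25A28, SLC25A37 and SLC25A39, had -0.14, 0.03 and -0.09 and were not called. Of the 4 probe sets of SLC25A37, 1 was called, at 0.15 ± 0.05 (adjusted p = 0.0386).

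SLC25A20, the carnitine/acylcarnitine carrier that takes long-chain fatty acids into the matrix for oxidation, gave opposite directions by its probe sets. The brighter one ran from 9.33 to 10.15 in the jejunum and from 9.00 to 10.25 in the ileum, with a difference of 0.12 ± 0.05 that was not called (adjusted p = 0.0943). The dimmer one averaged 6.31 ± 0.40 in the jejunum and 6.91 ± 0.45 in the ileum (SD, n = 25). It was called as higher in the ileum, at -0.60 ± 0.11 (adjusted p = 0.000266; 22 of 25 birds). Without the birds in doubt the brighter one was called as higher in the jejunum, at 0.17 ± 0.05 (limma, adjusted p = 0.0188). Which of the probe sets follows the SLC25A20 transcript was not tested, so no direction is given for this gene.

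**Figure D1:**
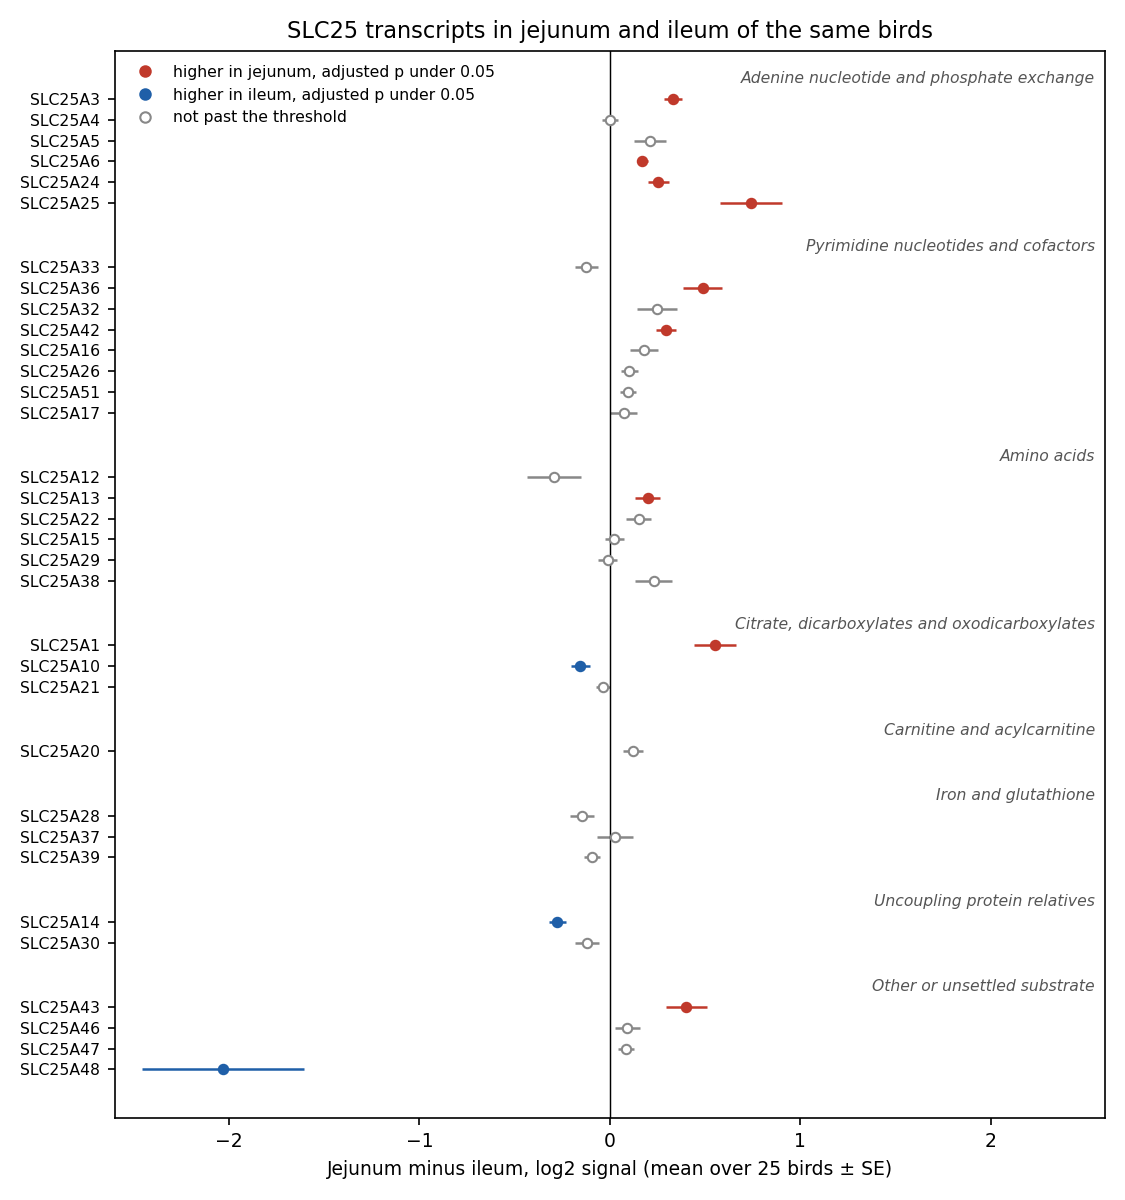
Difference in log2 signal between jejunum and ileum of the same bird for the 33 SLC25 members, by substrate group; points are means over 25 birds and bars are standard errors. SLC25A25 (0.74) and SLC25A1 (0.55) lie farthest to the jejunum side, and SLC25A48 (-2.03) farthest to the ileum side.

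The 12 called members kept their direction in each of the 3 batches. They were called on the same birds that make up the batches, so this is not a separate check. SLC25A25 had 0.30, 0.91 and 0.99 in batches 1, 2 and 3, and SLC25A48 had -1.40, -2.88 and -1.70. Among markers of other cells, 5 of 10 enterocyte genes were called as higher in the jejunum and 2 as higher in the ileum, with a median of 0.29. Of 7 smooth muscle genes 4 were higher in the jejunum and 0 in the ileum, with a median of 0.36. Of 6 fibroblast genes 2 were higher in the jejunum (median 0.41), and of 4 goblet cell genes 2 were higher in the ileum (median -0.22). Of the T cell and macrophage lists 1 gene each was called, as higher in the jejunum and the ileum. The mean signal of the enterocyte list ran from 11.92 to 12.82 in the jejunum and from 11.46 to 12.82 in the ileum, and that of the smooth muscle list from 4.47 to 6.73 and from 4.21 to 6.22. Their part in the carrier differences was not tested.

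Enzymes that work with the carriers were read from lists of partner genes by the same fit, against the shares of called probe sets given above. Of 9 measured genes of the malate-aspartate shuttle and glutamate metabolism, 5 were higher in the jejunum and 1 in the ileum. MDH2, the mitochondrial malate dehydrogenase, differed by 0.86 ± 0.11, GLUL, glutamine synthetase, by 0.65 ± 0.11, and GPT2, a mitochondrial alanine transaminase, by 0.42 ± 0.07. ASNS, asparagine synthetase, was the gene higher in the ileum, at -0.46 ± 0.11. Of 12 genes of citrate, pyruvate and 2-oxoglutarate metabolism, 5 were higher in the jejunum and 0 in the ileum, among them ACO1, the cytosolic aconitase, at 0.67 ± 0.11, IDH2, a mitochondrial isocitrate dehydrogenase, at 0.42 ± 0.09, and IDH3A, a subunit of another, at 0.23 ± 0.05.

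Of 5 genes of carnitine-dependent fatty acid entry and oxidation, 4 were higher in the jejunum. HADHB, a subunit of the trifunctional protein, differed by 0.55 ± 0.08, CPT2, the inner carnitine palmitoyltransferase, by 0.48 ± 0.07, and CRAT, carnitine acetyltransferase, by 0.51 ± 0.09. CPT1A, the outer carnitine palmitoyltransferase, was higher in the ileum, at -0.76 ± 0.14. In the list for iron, heme and one-carbon metabolism, 4 of 8 were higher in the jejunum, among them NFS1 (0.43 ± 0.08), a cysteine desulfurase, ALAS1 (0.43 ± 0.08), which starts heme synthesis, and ISCU (0.27 ± 0.08), a scaffold for iron-sulfur clusters.

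The ornithine and polyamine list had 1 of 6 called, ASS1, argininosuccinate synthase, at -1.11 ± 0.24. Of 7 genes of phosphate and nucleotide exchange, ATP5B (0.31 ± 0.07), an ATP synthase subunit, and AK3 (0.24 ± 0.08), a matrix adenylate kinase, were higher in the jejunum. VDAC1, a channel of the outer membrane, was higher in the ileum, at -0.10 ± 0.04. MTCH2, an outer membrane relative of the carriers, was the single called gene of 3 relatives outside the naming rule, at 0.24 ± 0.05. Of 7 protein import genes, TOMM22 (0.24 ± 0.06) and TOMM70 (0.21 ± 0.07), of the outer membrane translocase, were higher in the jejunum.

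Diet was compared within each segment by a fit of diet and batch to its 25 arrays, and the 4 comparisons with control share the same 5 control birds. By the chosen probe sets 0 of 33 members were called by limma in any of the 14 comparisons (each supplemented feed against control, lysolecithin against LPC at the same level, and high against low level). In the jejunum, 4, 4, 4 and 8 members had an unadjusted p under 0.05 on LPC low, LPC high, lysolecithin low and lysolecithin high. These were 12.1%, 12.1%, 12.1% and 24.2% of the members, and 8.56%, 10.9%, 8.92% and 17.8% of all probe sets had such a p. With a single probe set per gene, as for the members, the shares were 9.57%, 11.1%, 10.1% and 19.4%. In the ileum, 3, 4, 10 and 3 members did, or 9.09%, 12.1%, 30.3% and 9.09%, against 12.1%, 9.97%, 14.2% and 8.96% of all probe sets. With a single probe set per gene the ileum shares were 11.5%, 11.4%, 17.9% and 8.41%. After adjustment, 0.00261%, 0.112%, 0.0495% and 0.829% of all probe sets were called in the jejunum and 0.0313%, 0%, 0.875% and 0.216% in the ileum. The moderated F-test for any diet also called 0 members, where 0.13% of all probe sets in the jejunum and 0.138% in the ileum were called. At an unadjusted p under 0.05 it held 9 and 7 of the 33 members, against 13.8% and 14.6% of all probe sets.

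SLC25A22, the glutamate carrier, was the single member with a probe set called in a comparison with control, by the dimmer of its 2 probe sets. In the jejunum that probe set read 6.06, 6.38, 7.41, 7.10 and 6.77 in the control birds. It read 7.64, 7.02, 8.26, 7.87 and 8.47 on LPC low, and 7.85, 8.04, 8.94, 8.32 and 8.65 on LPC high. On lysolecithin low it read 6.99, 6.83, 8.60, 7.44 and 7.65, and on lysolecithin high 8.36, 7.57, 8.30, 8.22 and 8.48. All 5 birds of each high diet lay above all 5 control birds, while the low diets overlapped them; groups separated upward in this way for 1.97% of probe sets on LPC high and 1.4% on lysolecithin high.

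The dimmer SLC25A22 probe set rose by 1.62 ± 0.28 on LPC high (limma, adjusted p = 0.0322) and by 1.32 ± 0.28 on lysolecithin high (adjusted p = 0.0276). The differences were 0.99 ± 0.28 on LPC low (adjusted p = 0.325) and 0.76 ± 0.28 on lysolecithin low (adjusted p = 0.385). Within batches 1, 2 and 3 it was higher by 1.73, 1.69 and 1.72 on LPC high and by 2.14, 0.68 and 1.58 on lysolecithin high, from 1 or 2 birds of a diet each. Lysolecithin and LPC were not distinguished by this probe set at the high level (-0.29, 95% interval -0.88 to 0.29) or at the low level (-0.23, -0.81 to 0.35), and the high level exceeded the low one by 0.60 ± 0.20 (adjusted p = 0.196).

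These calls were near the threshold. Leaving out 1 bird ended the LPC high call for control replicates 1, 2, 4 and 5 and LPC high replicates 1, 2, 3 and 4 (adjusted p from 0.057 to 0.116, differences 1.51 to 1.69). The lysolecithin high call ended without control replicate 1, 4 or 5 or lysolecithin high replicate 1 or 3 (adjusted p from 0.0547 to 0.127, differences 1.10 to 1.36). The arrays in doubt include 1 jejunum control array, and without them the LPC high difference was 1.61 ± 0.31 (adjusted p = 0.0618).

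The brighter SLC25A22 probe set stayed within a narrower span. The jejunum control birds read 11.26, 11.01, 11.72, 11.52 and 11.31, the LPC high birds 11.73, 11.44, 11.91, 11.59 and 11.78, and the lysolecithin high birds 11.87, 11.92, 11.50, 11.98 and 11.58. Diet and control birds overlapped in both comparisons, with 3 of 5 birds above all controls in each. The differences were 0.37 ± 0.15 on LPC high (adjusted p = 0.345), 0.42 ± 0.15 on lysolecithin high (adjusted p = 0.16), 0.13 ± 0.15 on LPC low and 0.14 ± 0.15 on lysolecithin low. Both probe sets had a positive difference in all 4 comparisons in the jejunum and all 4 in the ileum, and the brighter one passed the threshold in none. Its smallest difference, 0.056 on lysolecithin low in the ileum, turned to -0.056 with array weights.

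In the ileum the dimmer probe set read 6.51, 6.40, 7.05, 7.46 and 6.12 in control birds and 7.74, 8.20, 8.31, 7.49 and 8.08 on LPC low. All 5 LPC low birds lay above all 5 controls, a separation found upward for 0.586% of probe sets. The difference of 1.19 ± 0.24 missed the threshold (adjusted p = 0.0696). Without the arrays in doubt it was 1.26 ± 0.26 and was called (adjusted p = 0.00715), and leaving out LPC low replicate 1 or 4 alone, both birds with an array in doubt, gave adjusted p of 0.0332 and 0.0281. With array weights it was also called (1.11 ± 0.21, adjusted p = 0.0152). On LPC high the difference was 1.04 ± 0.24 (adjusted p = 0.202), and 0.95 ± 0.18 with array weights, which was called (adjusted p = 0.0428). It was 0.73 ± 0.24 on lysolecithin high (0.312 as an adjusted p) and 0.42 ± 0.24 on lysolecithin low (0.45 as an adjusted p).

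Whether the diet differences of the SLC25A22 probe sets differed between the segments was tested on the within-bird difference of the 2 segments. For the dimmer probe set the jejunal effect exceeded the ileal one by 0.58 ± 0.34 on LPC high (adjusted p = 0.72) and by 0.59 ± 0.34 on lysolecithin high (adjusted p = 0.521), and neither passed. Over the family, the tests of diet effects between segments called 0 of 33 chosen probe sets by limma, and between 0% and 0.00521% of all probe sets. At an unadjusted p under 0.05 they held 2, 4, 3 and 1 of the 33 members on LPC low, LPC high, lysolecithin low and lysolecithin high. The F-test for any diet held 6. The shares of all probe sets were 5.58%, 7.5%, 5.05%, 11.2% and 10.3%, in the same order. The smallest adjusted p was 0.348, for SLC25A43.

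Other measures moved with the 2 jejunal comparisons in which the dimmer SLC25A22 probe set was called. An RNA integrity index, the 5′ signal less the 3′ signal averaged over 3 control transcripts, was -0.97 ± 0.14 (SD, n = 5) in control birds, -0.46 ± 0.10 on LPC high and -0.64 ± 0.29 on lysolecithin high. The index ran from -1.17 to -0.82 in control birds, from -0.60 to -0.35 on LPC high and from -1.07 to -0.30 on lysolecithin high. Control and LPC high did not overlap, so a fit with the index as a covariate cannot tell index and diet apart there. With the index as a covariate the dimmer SLC25A22 probe set differed by 1.37 ± 0.37 on LPC high (limma, adjusted p = 0.326) and by 1.17 ± 0.32 on lysolecithin high (adjusted p = 0.0735), and the brighter one by 0.67 ± 0.13 on lysolecithin high, which was called (adjusted p = 0.0207), and by 0.77 ± 0.15 on LPC high (adjusted p = 0.236). The segment score had a median of 0.07 in control birds, 2.96 on LPC high and 4.96 on lysolecithin high. With it as a covariate the dimmer probe set differed by 1.56 ± 0.30 on LPC high, which was called (adjusted p = 0.0223), and by 1.25 ± 0.31 on lysolecithin high (adjusted p = 0.0765). The brighter one then differed by 0.18 ± 0.11 on LPC high (adjusted p = 0.515) and by 0.17 ± 0.11 on lysolecithin high (adjusted p = 0.467).

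Several marker lists of other cells had shifted medians on these diets as well. Of 6 fibroblast genes 0 were called. Their mean signal ran from 5.82 to 6.63 in jejunum control birds, from 6.37 to 8.18 on LPC high and from 5.98 to 8.58 on lysolecithin high, and their median difference was 0.96 and 1.50. Median differences on LPC high and lysolecithin high were 0.86 and 0.89 for 6 macrophage genes, 0.36 and 0.73 for 7 smooth muscle genes, 0.29 and 0.58 for 4 erythroid genes and 0.24 and 0.12 for 10 enterocyte genes, with 0 called. The 4 goblet cell genes had -0.08 and -0.40, with 1 called on lysolecithin high. The 6 T cell genes had -0.01 and 0.09, the 3 B and plasma cell genes 0.01 and 0.06, and the 4 pancreas genes -0.19 and -0.20, with 0 called. The part of these cells in the SLC25A22 result was not tested.

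**Figure D2:**
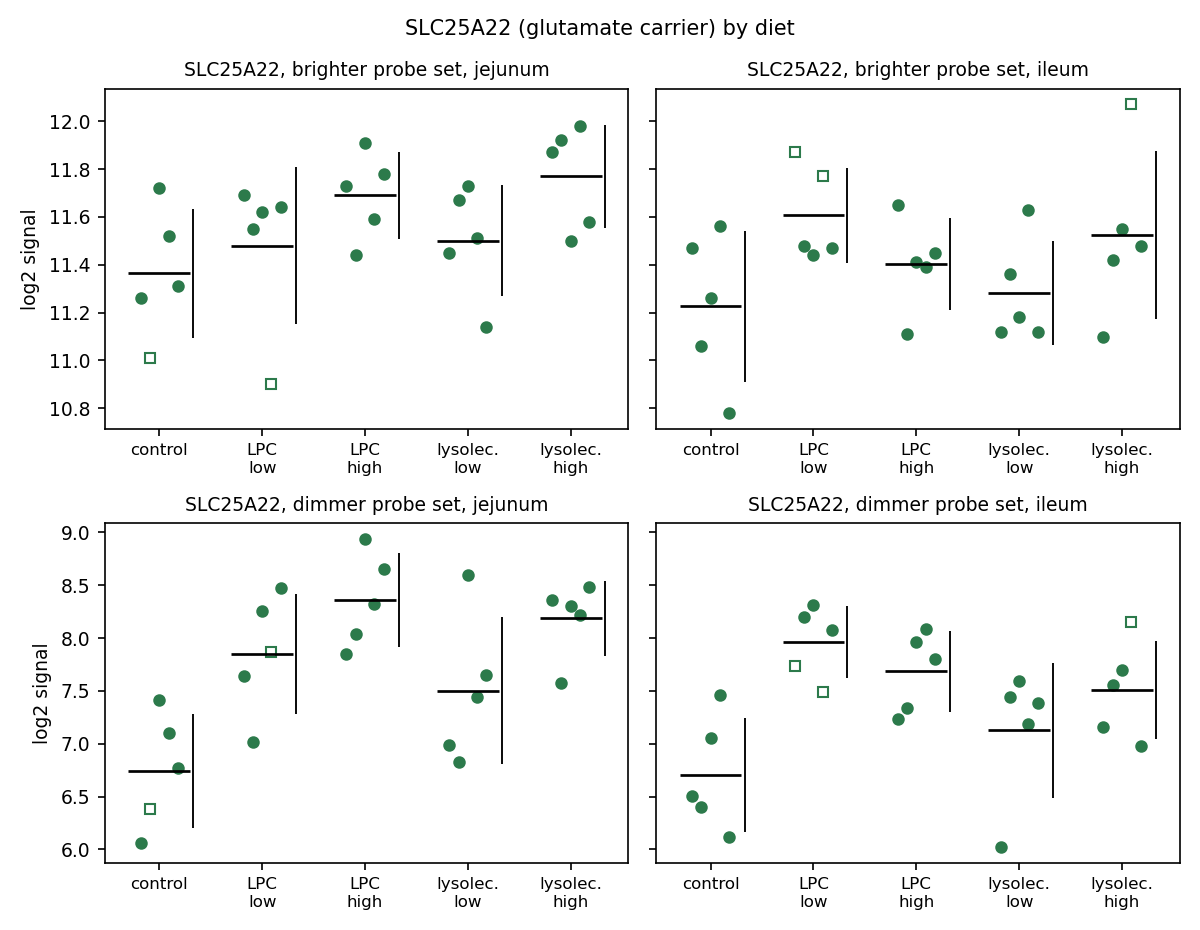
SLC25A22 log2 signal in each bird by diet, for the brighter (top) and dimmer (bottom) probe set in jejunum (left) and ileum (right); horizontal lines are means, vertical lines 1 SD (n = 5), and open squares are arrays in doubt. In the jejunum by the dimmer probe set, the LPC high birds (7.85 to 8.94) and the lysolecithin high birds (7.57 to 8.48) lie above the control birds (6.06 to 7.41).

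The remaining members are described by the one with the smallest p in each comparison, and 0 of them were called. On LPC low in the jejunum this was SLC25A42, the coenzyme A carrier. It read 3.51, 3.55, 3.79, 3.79 and 3.76 in control birds and 4.52, 3.71, 4.77, 3.89 and 3.92 on LPC low, a difference of 0.48 ± 0.15 (limma, adjusted p = 0.38). Of the LPC low birds 4 lay above all controls and 1 did not. On LPC high SLC25A42 read 3.99, 3.95, 4.12, 4.19 and 4.08, and on lysolecithin high 4.14, 4.10, 3.91, 4.06 and 4.00, in both cases with all 5 birds above all controls, as for 1.97% and 1.4% of probe sets. The differences were 0.42 ± 0.15 (adjusted p = 0.293) and 0.36 ± 0.15 (adjusted p = 0.223).

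SLC25A42 was also above all controls in the ileum on LPC low, where it read 3.84, 3.74, 3.81, 3.76 and 3.67 against 3.54, 3.63, 3.57, 3.50 and 3.44, a separation found for 0.586% of probe sets. This difference was 0.23 ± 0.13 (limma, adjusted p = 0.473). These signals are dim, under the median probe set mean of 4.65. A fit of the LPC high and control arrays alone called SLC25A42 in the jejunum, at 0.39 ± 0.06 (adjusted p = 0.037).

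SLC25A46, the outer membrane protein, had the smallest p on LPC high and on lysolecithin low in the jejunum. Control birds read 6.29, 6.58, 6.93, 6.73 and 7.01, LPC high birds 7.48, 6.96, 7.28, 7.43 and 7.21, and lysolecithin low birds 7.01, 7.17, 7.12, 6.79 and 7.47. The groups overlapped in both comparisons, with 4 and 3 birds above all controls. The differences were 0.53 ± 0.16 (limma, adjusted p = 0.183) and 0.40 ± 0.16 (adjusted p = 0.435). With the integrity index as a covariate they were 0.24 ± 0.19 (adjusted p = 0.74) and 0.22 ± 0.16 (adjusted p = 0.834). The index of LPC high and control birds did not overlap, so index and diet cannot be told apart in that comparison.

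SLC25A17, the peroxisomal carrier, came near the threshold on LPC high by its dimmer probe set. That probe set read 8.33, 8.43, 8.70, 7.87 and 8.51 in jejunum control birds and 9.33, 8.94, 9.10, 9.06 and 9.37 on LPC high, with no overlap. Groups separated upward in this way for 1.97% of probe sets. The difference was 0.77 ± 0.17 (limma, adjusted p = 0.0608). The brighter SLC25A17 probe set had 0.44 ± 0.16 (adjusted p = 0.303), with 2 of 5 birds above all controls.

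On lysolecithin high in the jejunum the smallest p belonged to SLC25A3, the phosphate carrier. Control birds read 11.29, 11.22, 11.60, 11.46 and 11.71 and lysolecithin high birds 11.93, 11.63, 11.91, 11.97 and 11.78, so 4 of 5 lay above all controls. The difference was 0.38 ± 0.11 (limma, adjusted p = 0.112), and it was called when lysolecithin high replicate 2 was left out (0.44 ± 0.12, adjusted p = 0.0491). With the segment score as a covariate it was 0.21 ± 0.10 (adjusted p = 0.313). SLC25A25, the ATP-Mg/phosphate carrier, had the widest positive difference there, 1.02 ± 0.39 (adjusted p = 0.183), with 8.80 in 1 bird and 6.58 to 7.58 in the other 4, against 5.75 to 6.94 in control birds. The other members with an unadjusted p under 0.05 there were SLC25A1, SLC25A17, SLC25A20, SLC25A22, SLC25A42 and SLC25A43, with differences between 0.25 and 0.59.

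Between levels in the jejunum, most members had a positive difference, high less low, and 0 were called. High exceeded low over both products for 28 of 33 members (84.8%) and for 50.7% of all genes with a single symbol. The median difference was 0.16 over the members and -0.02 over all probe sets. It was 0.13 over the members without the arrays in doubt and 0.09 with the segment score as a covariate. By limma 0% of all probe sets were called, and 8 members (24.2%) had an unadjusted p under 0.05, against 14.8% of all probe sets and 19.1% of genes.

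Other measures differed with the levels as well. The segment score had a median of 2.96 and 4.96 on the high levels, for LPC and lysolecithin, and of -0.38 and 1.46 on the low ones, where LPC low includes an array in doubt at -5.99. The mean signal of the fibroblast markers had medians of 6.97 and 7.55 on the high levels and 5.77 and 5.54 on the low ones. Their part in the members' differences was not tested.

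The smallest p between levels belonged to SLC25A20, the carnitine/acylcarnitine carrier, by its brighter probe set. It read 9.66, 9.56, 9.55, 9.43 and 9.53 on LPC low and 9.54, 9.66, 9.69, 9.33 and 9.53 on lysolecithin low. On the high levels it read 9.67, 9.75, 9.86, 10.00 and 9.69 with LPC and 9.98, 10.02, 10.04, 10.06 and 9.64 with lysolecithin.

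Of the 10 birds on a high level, 7 lay above all 10 birds on a low level for SLC25A20. The difference was 0.33 ± 0.08 (limma, adjusted p = 0.142), and it was called without lysolecithin high replicate 5 (0.36 ± 0.08, adjusted p = 0.038). The dimmer SLC25A20 probe set had -0.11 ± 0.17 (adjusted p = 0.805), so no direction is given for this gene here either. SLC25A1, SLC25A36 and SLC25A22 had 0.55 ± 0.17, 0.56 ± 0.16 and 0.26 ± 0.10 (0.173, 0.169 and 0.259 as adjusted p). SLC25A48 had -1.78 ± 0.69 (adjusted p = 0.248). With the integrity index as a covariate 4 members were called, SLC25A1 (0.68 ± 0.15), SLC25A20 (0.37 ± 0.08), SLC25A22 (0.37 ± 0.08) and SLC25A36 (0.69 ± 0.15). The share of all probe sets called with this covariate is not given here, so these calls are not read as a trait of the family. The index averaged -0.46 and -0.64 on the high levels and -0.72 and -0.66 on the low ones, for LPC and lysolecithin.

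In the ileum, 10 members (30.3%) had an unadjusted p under 0.05 on lysolecithin low, all of them with lower signals than control, against 14.2% of all probe sets and 17.9% of genes in either direction. SLC25A16, proposed to carry coenzyme A or a precursor, had the smallest. It read 10.45, 10.17, 10.00, 10.29 and 9.67 in control birds and 9.09, 9.62, 9.21, 9.43 and 9.82 on lysolecithin low. The difference was -0.68 ± 0.19 (limma, adjusted p = 0.0772), with 4 of 5 birds below all controls. It passed without control replicate 5 (-0.84 ± 0.18, adjusted p = 0.0297). SLC25A20, SLC25A30, SLC25A32, SLC25A33, SLC25A36, SLC25A43 and SLC25A51 had differences between -0.60 and -0.28. The fibroblast markers had a median difference from control of -1.36 on this diet, and of -1.19, -1.55 and -0.52 on LPC low, LPC high and lysolecithin high, with 0 of 6 called on each. The 10 enterocyte markers had 0.31, 0.38, 0.43 and 0.45 in the same order.

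SLC25A12, aralar, read 6.26, 7.83, 6.28, 5.97 and 5.73 in ileum control birds and 4.86, 5.23, 5.00, 5.33 and 5.64 on lysolecithin low, with no overlap. Groups separated downward in this way for 1.49% of probe sets. The difference was -1.20 ± 0.36 (limma, adjusted p = 0.11). For SLC25A12, control replicate 2 read highest in both segments, 7.51 in the jejunum, an array in doubt, and 7.83 in the ileum. SLC25A1 had -0.65 ± 0.26 there (adjusted p = 0.24), and it was called without the arrays in doubt (-0.65 ± 0.16, adjusted p = 0.0477).

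SLC25A30, a relative of the uncoupling proteins, had the smallest p on LPC high and lysolecithin high in the ileum. Control birds read 3.67, 3.15, 4.10, 3.60 and 4.18, LPC high birds 2.89, 2.91, 3.12, 4.12 and 3.19, and lysolecithin high birds 3.07, 3.09, 2.88, 2.91 and 3.74. Groups overlapped in both. The differences were -0.55 ± 0.20 (limma, adjusted p = 0.359) and -0.70 ± 0.20 (adjusted p = 0.2), on dim signals. On LPC low it was SLC25A25, which read 5.54, 5.59, 5.52, 5.25 and 6.19 in control birds and 7.20, 6.14, 6.22, 5.92 and 6.30 on LPC low, a difference of 0.72 ± 0.26 (adjusted p = 0.264) with 3 of 5 birds above all controls. The highest value, 7.20, was an array in doubt.

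**Figure D3:**
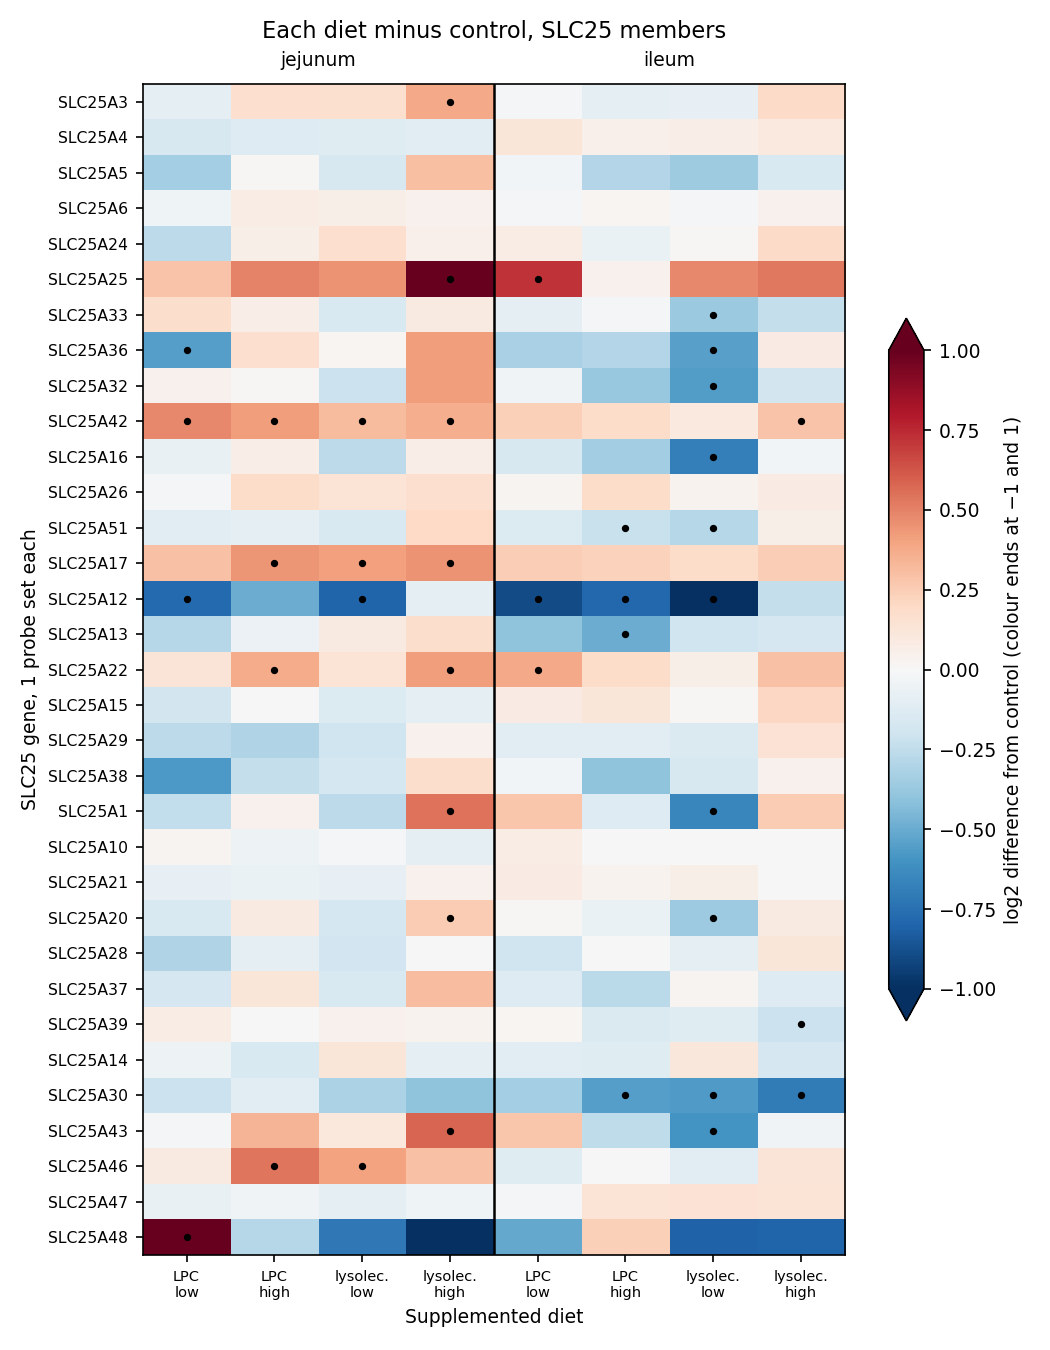
Log2 difference of each supplemented diet from control for the 33 SLC25 members, in the jejunum (left 4 columns) and ileum (right 4); red is higher than control, blue lower, and the colour ends at -1 and 1. Dots mark an unadjusted p under 0.05 (4, 4, 4 and 8 members in the jejunum, 3, 4, 10 and 3 in the ileum); none passed the adjusted threshold.

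Lysolecithin and purified LPC were compared at matched LPC levels, again with 0 of 33 members called by limma in each of the 4 comparisons (jejunum low and high, ileum low and high). The shares of all probe sets called were 0%, 0%, 0.0365% and 0%. At an unadjusted p under 0.05 there were 6, 3, 5 and 2 members (18.2%, 9.09%, 15.2% and 6.06%), against 5.21%, 6.11%, 12.6% and 3.48% of all probe sets. With a single probe set per gene the shares were 6.17%, 6.56%, 15.2% and 4.11%. At the low level in the jejunum SLC25A48 had the smallest p, at -2.93 ± 0.99 (95% interval -4.98 to -0.88; adjusted p = 0.847), and with the segment score as a covariate it had -1.36 ± 0.85, also not called. At the high level it was SLC25A29, the carrier of basic amino acids. It read 2.64, 2.91, 2.81, 2.79 and 3.02 on LPC and 3.17, 3.10, 3.58, 3.25 and 2.75 on lysolecithin, which overlapped, with a difference of 0.34 ± 0.15 (0.04 to 0.65; adjusted p = 0.797) on dim signals. Against control, all 5 LPC high birds lay below all 5 control birds for SLC25A29 (-0.30 ± 0.15, adjusted p = 0.472), as for 1.7% of probe sets.

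In the ileum at the low level SLC25A43 read 7.29, 6.32, 6.53, 6.96 and 6.52 on LPC and 5.21, 6.78, 5.75, 5.77 and 5.81 on lysolecithin. The difference was -0.88 ± 0.24 (95% interval -1.38 to -0.37; limma, adjusted p = 0.124), with 4 of 5 lysolecithin birds below all LPC birds. It was called without lysolecithin low replicate 2 (-1.06 ± 0.23, adjusted p = 0.0259). SLC25A1 had -0.93 ± 0.26 in the same comparison (adjusted p = 0.134). Of the LPC low arrays there, 2 were in doubt. Without the arrays in doubt SLC25A48 was called, at -1.56 ± 0.35 (adjusted p = 0.0255).

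At the high level in the ileum the smallest p was that of SLC25A51, the NAD carrier. It read 8.19, 8.00, 7.93, 7.92 and 7.86 on LPC and 8.18, 8.12, 8.35, 8.16 and 8.32 on lysolecithin, with 2 birds above all LPC birds. The difference was 0.28 ± 0.10 (0.07 to 0.50; limma, adjusted p = 0.998). Between levels in the ileum, 0 members were called, 0 had an unadjusted p under 0.05 and 0% of probe sets were called. SLC25A12 had the smallest p there, at 0.54 ± 0.26 (adjusted p = 0.45).

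In the jejunum SLC25A48 differed more between birds of one diet than nearly all other transcripts. Its SD within diets was 1.63 in the jejunum, above that of 99.9% of probe sets, and 1.61 without the arrays in doubt. In the ileum it was 1.45 (above 99.9%) with all arrays, but 0.49 (above 94.8%) without the arrays in doubt, a comparison chosen after seeing the data. In the jejunum it read 7.91, 7.91, 4.28, 4.76 and 4.75 in control birds and 6.65, 7.74, 7.69, 9.12 and 9.58 on LPC low. It read 6.46, 7.56, 3.64, 7.48 and 3.98 on LPC high, 4.31, 3.34, 3.36, 7.47 and 7.56 on lysolecithin low, and 4.22, 3.53, 5.21, 3.62 and 4.23 on lysolecithin high. The values fell in 2 separate ranges, 13 birds between 3.34 and 5.21 and 12 between 6.46 and 9.58. All 5 LPC low birds were in the upper range and all 5 lysolecithin high birds in the lower one, and the other diets were split.

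The jejunal SLC25A48 ranges went with the segment score. Over all 25 jejunum arrays Pearson's r was -0.77 and Spearman's rho -0.81. The permutation tests, adjusted over the 66 relations described below, gave adjusted p of 0.000165 and 0.00033. The 13 arrays in the lower range had scores from 0.07 to 5.41 (median 4.73), and the 12 in the upper range from -5.99 to 2.96 (median 0.94). Within the lower range Pearson's r was -0.56 (permutation test, p = 0.0466, adjusted p = 0.0888) and Spearman's rho -0.33 (p = 0.271). Within the upper range r was -0.50 (p = 0.0888, also after adjustment over the 2) and rho -0.56 (p = 0.0628). Without the 2 arrays farthest from the median score, r was -0.53 and -0.31. The ranges were split at the widest gap in SLC25A48 itself, which narrows its span within each. The values within a range therefore cannot decide on the relation. Control replicate 2 and LPC low replicate 4, the jejunum arrays in doubt, were both in the upper range.

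In the ileum, 23 of the 25 SLC25A48 values lay between 7.08 and 9.39, and the remaining 2 were the ileum arrays with a jejunal score. Diet by diet, the ileum birds read 8.36, 7.64, 8.30, 7.91 and 8.91 on control feed and 7.40, 8.06, 7.08, 7.44 and 7.09 on lysolecithin low. The LPC high birds read 7.30, 8.35, 7.95, 9.06 and 9.39. Lysolecithin low had -0.81 against control (limma, adjusted p = 0.722).

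**Figure D4:**
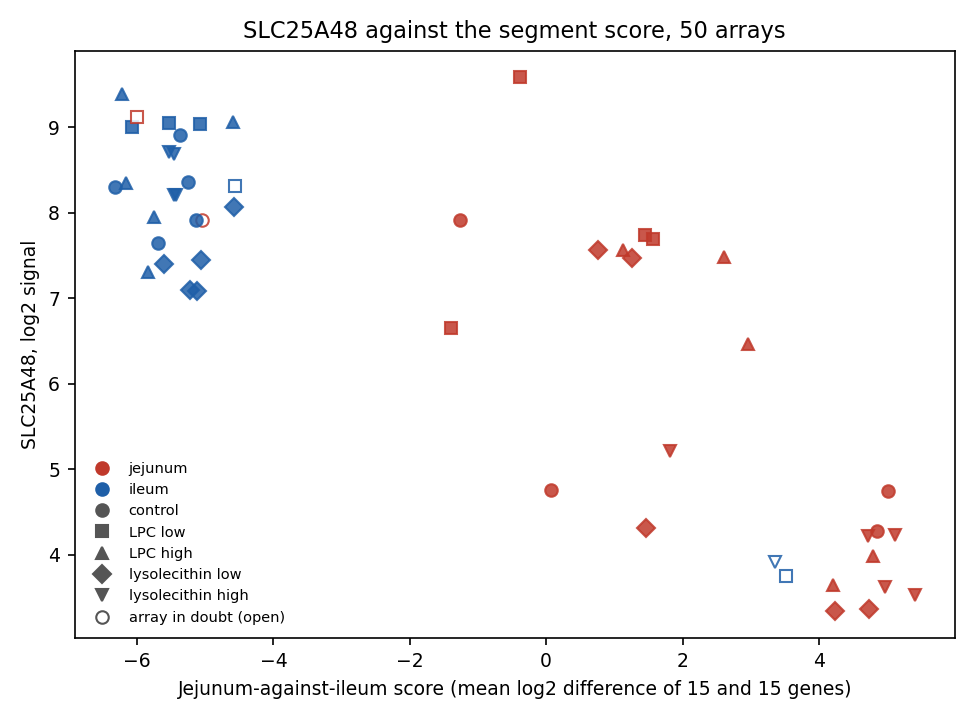
SLC25A48 log2 signal against the jejunum-against-ileum score for all 50 arrays, coloured by labelled segment, with a marker per diet and open markers for arrays in doubt. Jejunum arrays span 3.34 to 9.58, and the 2 ileum arrays at 3.75 and 3.92 have scores of 3.51 and 3.35.

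Other members also went with the score among the 25 jejunum arrays, in 66 relations tested over both segments by permutation across all birds of a segment, diets not held apart. SLC25A36 had r = 0.81 and rho = 0.77 (p = 1e-05, the smallest the 100000 permutations can give, and 5e-05; adjusted p = 0.000165 and 0.000825), and 0.82 without the 2 arrays farthest from the median, which are the 2 in doubt. SLC25A3 had r = 0.80 and rho = 0.80 (both p = 1e-05; adjusted p = 0.000165 and 0.00033), and 0.65 without those 2. SLC25A1 had r = 0.63 and rho = 0.74 (p = 0.00069 and 3e-05; adjusted p = 0.00414 and 0.00066), and 0.62 without them. The brighter SLC25A22 probe set had r = 0.77 and rho = 0.63 (p = 1e-05 and 0.00077; adjusted p = 0.000165 and 0.0102), and 0.56 without them. SLC25A17, SLC25A25, SLC25A38 and SLC25A43 also passed by both measures, with r between 0.49 and 0.54. SLC25A26 passed by r alone (0.55, adjusted p = 0.0198). The share of all genes that go with the score was not computed, so these relations are not read as a trait of the family. The score is built from genes that differ between the segments. SLC25A1, SLC25A3, SLC25A25, SLC25A36, SLC25A43 and SLC25A48 were themselves called between the segments. For such genes a relation with the score is partly built in, so it is not separate evidence. The same holds for the relations within diets and batches given below.

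The diets differed in the score, so the relations were also computed within diets, on deviations from diet means with scores permuted inside each diet, a test chosen after seeing the data. In the jejunum r was then 0.71 for SLC25A36, 0.68 for SLC25A3 and 0.76 for SLC25A22 (adjusted p = 0.0112, 0.0212 and 0.0112 over the 66 permutation tests). For SLC25A48 it was -0.68 (adjusted p = 0.0112). For SLC25A1 it was 0.57, which missed the threshold (adjusted p = 0.0513). SLC25A17, SLC25A25, SLC25A26, SLC25A38 and SLC25A43 did not pass within diets in the jejunum either. In the ileum, SLC25A1 (r = 0.80), SLC25A25 (0.72), SLC25A38 (0.69) and SLC25A43 (0.57) were among those that passed (permutation test, adjusted p = 0.0139, 0.0454, 0.0331 and 0.0115). SLC25A3, SLC25A22 and SLC25A36 passed there as well, and SLC25A17, SLC25A26 and SLC25A48 did not. Their r was 0.58, 0.14 and -0.92 (permutation test, adjusted p = 0.112, 0.838 and 0.0802), so the r of SLC25A48 was large though it missed the threshold. The arrays in doubt were kept, and the test within diets was not run without them.

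Within the 3 batches, of 8 or 9 jejunum arrays, r was 0.56, 0.84 and 0.97 for SLC25A36 and 0.92, 0.39 and 0.92 for SLC25A3. It was 0.28, 0.62 and 0.89 for SLC25A1 and 0.83, 0.87 and 0.71 for SLC25A22. The relation of SLC25A13 rested on the arrays in doubt, with r = 0.50 (permutation test, p = 0.0117, adjusted p = 0.035) and 0.13 without them, and rho = 0.24 (p = 0.24, adjusted p = 0.428). In the ileum the Pearson relations of SLC25A1, SLC25A36 and SLC25A48 with the score rested on the arrays in doubt. They were 0.71, 0.65 and -0.88 with all arrays (permutation test, adjusted p = 0.0069, 0.00891 and 0.00539) and -0.08, -0.02 and -0.15 without those in doubt, and rho was 0.25, 0.13 and -0.31 (adjusted p = 0.428, 0.779 and 0.309). Further ileum members passed by r, and the r of each was also smaller in size without those arrays. The sign changed for SLC25A10 (-0.50 to 0.24), SLC25A17 (0.58 to -0.25) and SLC25A42 (0.48 to -0.05). Others kept their sign, and SLC25A3, SLC25A22, SLC25A25 and SLC25A38 had 0.70, 0.63, 0.73 and 0.68 with all arrays and 0.36, 0.10, 0.37 and 0.17 without. Their rho did not pass (permutation test, adjusted p = 0.171, 0.171, 0.0585 and 0.167).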

How the data were processed

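Per the labels and the submitters' processing notes, RNA with an integrity number above 8.7 was hybridised to Affymetrix chicken genome arrays, and the authors deposited log2 signals made with RMA, whose version is not given in the sources used here. RMA equalises the arrays, so a shift shared by most transcripts is not visible. Of 38535 probe sets, 153 for array controls and reporter genes were not tested. Diet was fitted within each segment on 25 arrays with batch as a term. Segments were compared within birds, by a fit with the bird as a block, because the labels number each array's bird. The diet and segment tests used limma 3.58.1 in R 4.3.3 with Benjamini-Hochberg adjustment over 38382 probe sets. The fits were also run on simulated arrays with independent noise. For LPC high in the jejunum, 35.8% of log2 changes of 0.5 and 83.6% of changes of 1 were recovered. Between the segments these shares were 92.5% and 98.5%. Unchanged probe sets were called as well, 15 for LPC high and 8 between the segments. Changes of 0.5, 1 and 2 were planted in 67, 67 and 66 probe sets. The adjusted threshold depends on how many probe sets change, so these shares do not carry over to comparisons with fewer changed probe sets. Diet changes near 0.5, and some near 1, could therefore be missed. Arrays hold no count of reads, and the number of birds limits the precision. Symbols came from the platform annotation, and all 33 gene IDs matched a current gene table. Of the chosen probe sets, 9 carry a suffix for related transcripts and 3 one for alternative transcripts, so reads of near relatives can mix.

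Every member was listed by its group. Bird values were given for part of the SLC25A22 groups and, where no member passed in a diet comparison, mostly for the member with the smallest p. Members called between the segments were given with a range, medians or the difference alone. Up to 3 partner genes per list were those with the smallest p. ASNS and CPT1A were named after their values were seen. The members, lists and tests were chosen with earlier results of these data known. Birds of a diet may share pens, so p-values measure the spread between these birds.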

Additional observations from a re-analysis of the deposited data

Results flagged for a closer look

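Single birds were compared with the other 4 of their group for 8 probe sets in 80 groups, by Dixon's gap test, which chance passes in about 1 of 20 groups. In 6 groups 1 bird stood apart. By the brighter SLC25A22 probe set, jejunum LPC low replicate 4 read 10.90, against 11.55 to 11.69 in the others, and it is an array in doubt. By the dimmer SLC25A22 probe set, jejunum lysolecithin high replicate 2 read 7.57 (others 8.22 to 8.48) and ileum lysolecithin low replicate 1 read 6.02 (others 7.19 to 7.59). SLC25A30 was high in both segments of LPC high replicate 4, at 4.22 in the jejunum (others 3.01 to 3.35) and 4.12 in the ileum (others 2.89 to 3.19). It was also high in ileum lysolecithin high replicate 5, at 3.74 (others 2.88 to 3.09).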

How the results depend on the processing

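Leaving aside the fits that drop 1 bird, 176 counts of called members stayed within 1.5 times the reported count and 11 did not. In the segment comparison, 20 members were called without the birds in doubt, 10 with no replicate block (SLC25A10 and SLC25A13 were lost, at -0.15 and 0.20, adjusted p 0.0677 and 0.0855), and 11 to 18 when each bird was left out in turn, with 18 without LPC low replicate 4. In the jejunum 1 member was called on LPC high with only the groups compared (SLC25A42) and 1 when any probe set counted (SLC25A22). On lysolecithin high 1 was called when any probe set counted and 1 with the integrity index as a covariate (SLC25A22 both times), and 0 to 1 when each bird was left out. For the high against the low level 4 were called with the integrity index, and 0 to 1 when each bird was left out. The shares of all probe sets called in these other fits are not given here, so the counts are not read as traits of the family.

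In the ileum on lysolecithin low, 1 member was called with array weights (SLC25A16), 1 with the bird as a random replicate block in a fit of both segments (SLC25A16, -0.68, adjusted p = 0.0413), 1 without the arrays in doubt (SLC25A1), 2 with the segment score as a covariate (SLC25A1 and SLC25A16) and 0 to 1 when each bird was left out. For lysolecithin low against LPC low 1 was called without the arrays in doubt and 0 to 1 when each bird was left out. The brighter SLC25A22 difference on lysolecithin low in the ileum, 0.056, turned to -0.056 with array weights and -0.031 without lysolecithin low replicate 4, and ranged from -0.074 (without control replicate 5) to 0.14 when each bird was left out. The dimmer SLC25A22 probe set in the jejunum kept its direction under all alternatives run, from 1.37 to 1.72 on LPC high and from 1.10 to 1.53 on lysolecithin high. With the replicate block it passed at 1.65 (adjusted p = 0.00436) and 1.35 (adjusted p = 0.0051). Beside the settings given in the report, on LPC high it missed the threshold with batch as a random block (adjusted p = 0.055), and on lysolecithin high also with batch as a random block (0.0578), with no batch term (0.0544) and with only the groups compared (0.1). The cause of these changes was not tested. The block changed no other call in the diet comparisons. Signals of 7 members lay under the median probe set mean, which limits what could be seen for them.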
